A study of Drosophila melanogaster with 12 samples.

Results

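The pickpocket genes of *Drosophila melanogaster* encode the fly's DEG/ENaC channels, a family of sodium channels that also holds the epithelial sodium channel of the vertebrate airway. The members were taken by name, as every gene called *ppk*, *ppk* with a number, *Nach* or *rpk*, and 31 of the 17697 genes in the files met this rule. The rule itself used no measured value, but it was chosen with earlier results of these data known. The RNA came from 12 libraries, 4 of adult tracheae and 4 of larval tracheae, both dissected by hand, and 4 of whole adult flies. All animals were of the w1118 strain, with no treatment. The adult tracheae and the whole flies came from females 5 to 7 days old, and the larval tracheae from mid 3rd instar larvae of both sexes, taken before wandering. Each library pooled tissue of 3 animals, and tracheae of the head, thorax and abdomen were collected from the adults. Adult and larval tracheae therefore differ in stage and in sex makeup together, and these cannot be told apart.

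DEG/ENaC channels are trimers that carry sodium across the cell membrane, and each subunit has a pair of membrane-spanning segments and a large extracellular loop. In vertebrate airways such channels take up sodium and with it liquid from the airway lumen. In the fly, *ppk11* and *Nach* are needed for the tracheae to clear their liquid before they fill with gas, *ppk* and *ppk26* act together in the class IV sensory neurons of the body wall that respond to harsh touch, *ppk28* serves water taste, *ppk11* and *ppk19* salt taste, *ppk23*, *ppk25* and *ppk29* the sensing of pheromones, and *rpk* is known from the ovary and early embryo.

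All 31 members are annotated as protein-coding, and all 31 stood at the same position in the files and in the Ensembl annotation of BDGP6. Their exon lengths ran from 1266 to 3212 bases with a median of 1722. Chromosome arm 2L holds 9 of them, 3R holds 9, 2R holds 7, 3L holds 3 and X holds 3. The genes *ppk21*, *ppk20*, *ppk30* and *ppk19* form a cluster on 3R with gaps of 30, 271 and 977 bases, the last with 1 other gene between *ppk30* and *ppk19*, *ppk7* and *ppk14* are 624 bases apart on 2L, and *ppk11* and *ppk16* share the same stretch of 2L, from 9771155 to 9775030, with the same exon length of 3212 bases. Reads of *ppk11* and *ppk16* therefore cannot be told apart. The counting is not stated to use strand, so reads of a member and of a gene that overlaps it on the other strand cannot be told apart either. Sequences of the members were not used here.

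The depth of a library was 5139980 to 14962142 gene reads for adult tracheae, 5017919 to 8169848 for larval tracheae and 5397732 to 9880844 for whole flies. Groups were taken from the sample titles, because another name carried by each table has letters that could be read as a different group. Under the titles *btl*, the FGF receptor of tracheal cells, had a level of 45.9 ± 6.79 RPKM (SD, n = 4) in the larval, 4.42 ± 1.86 in the adult tracheae and 0.356 ± 0.345 in intact flies. RPKM is a read level in which the exon reads of a gene are divided by its exon length and by the depth of the library. The transcript of *trh*, which sets tracheal cell fate, was at 4.77 ± 1.46 RPKM in larval and 2.32 ± 0.969 in adult tracheae. Intact flies had 0 reads of *trh*. The 16 tracheal markers measured summed to 146 to 224 RPKM in adult tracheae and to at most 133 in intact flies. Of these, *kkv*, *mmy* and *crb* had lower means in adult tracheae than in intact flies, and the others higher ones. The 9 fat body markers summed to 39010 to 84776 RPKM in adult tracheae and to 13632 to 17122 in intact flies. The part of fat body RNA in the adult tracheal libraries was not tested. Nothing in the sources used here says whether the 4 libraries of a group came from separate rearings of animals, so p-values measure only the spread between these libraries. In bulk RNA, fewer cells of a type and less RNA per cell cannot be told apart.

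Part of the family was not read in any of these samples. No exon read was given to 13 of the 31 members in any of the 12 libraries: *Nach*, *ppk7*, *ppk9*, *ppk11*, *ppk12*, *ppk14*, *ppk18*, *ppk19*, *ppk21*, *ppk24*, *ppk25*, *ppk27* and *ppk30*. Both genes known for liquid clearance in the tracheae, *Nach* and *ppk11*, are among them, as are the salt taste gene *ppk19* and the pheromone gene *ppk25*. For *Nach*, 3 reads, the limit that a count of 0 allows, stood at 0.121 to 0.360 RPKM in a library, so a level below this could have given no read. This limit and the intervals below cover counting error only, since the reads carry no molecular identifiers. For *ppk11*, *ppk25*, *ppk18* and *ppk27*, a count of 0 says only that no read was assigned to them. The 1 read given to *ppk16*, in adult trachea replicate 1, did not map uniquely and could be of *ppk11*. The gene *CheB42c* covers all 1774 bases of the overlap with *ppk25* and had 1936 reads, of which 54 mapped uniquely. The gene *CG17633*, which overlaps *ppk18* by 1350 bases, had 13397 reads, of which 0 mapped uniquely. *ppk27* lies within *CG32264*, which runs on the same strand.

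Exon reads were found for 18 members, and for 8 of these in 1 library only. Adult tracheae had reads of 12 members, larval tracheae of 12 and whole flies of 8. These are 38.7%, 38.7% and 25.8% of the family, where 78.7%, 73.4% and 73.4% of the 12783 protein-coding genes matched to the annotation had a read. With a minimum of 10 reads over the group, the counts were 8, 8 and 5 members. That is 25.8%, 25.8% and 16.1% of the family, where 73.0%, 63.7% and 68.1% of these protein-coding genes reached the minimum. Reads in all 3 groups were found for 6 members, in adult tracheae alone for 5 (*ppk3*, *ppk5*, *ppk8*, *ppk16*, *ppk31*), in larval tracheae alone for 4 (*ppk6*, *ppk10*, *ppk15*, *ppk17*) and in whole flies alone for 1 (*ppk20*). Of the 10 genes read in a single group, *ppk6*, *ppk10*, *ppk16* and *ppk17* had 1 read each, so a group could be named by 1 read.

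**Figure D1:**
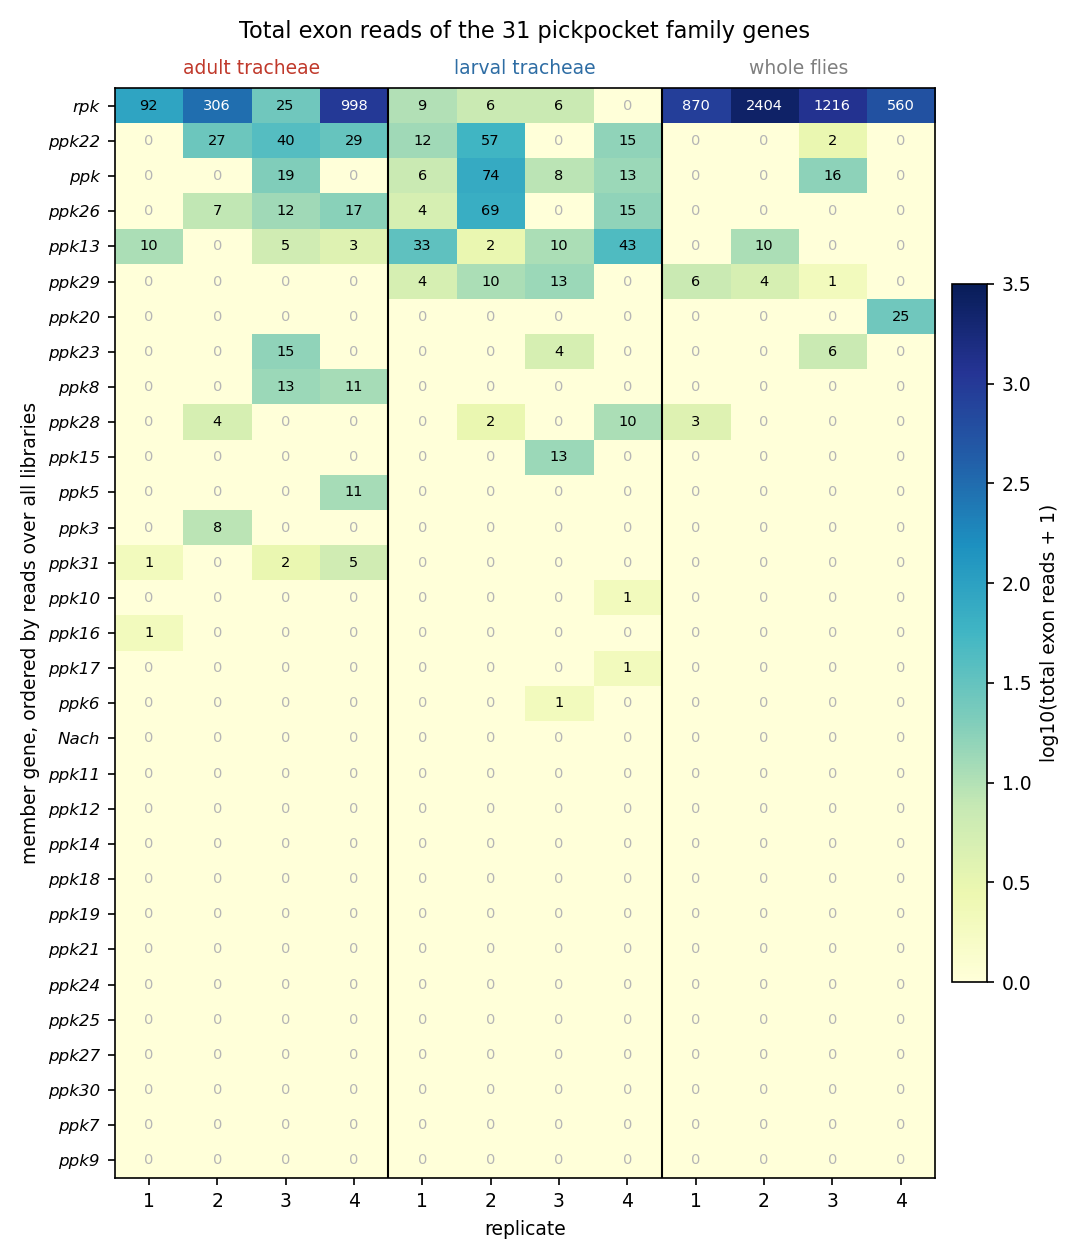
Total exon reads of each of the 31 pickpocket family genes (rows, ordered by their sum) in each of the 12 libraries (columns, numbered by replicate within adult tracheae, larval tracheae and whole flies). The numbers are reads and the colour is log10(reads + 1); *rpk* has the most reads in every whole-fly column and in adult columns 1, 2 and 4, *ppk*, *ppk13*, *ppk22* and *ppk26* make up most of the larval reads, and 13 rows are at 0 throughout.

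The makeup of the family differed by group. Of the family's 7225 exon reads, 6492 were of *rpk*. It took 85.6% of the family's reads in adult tracheae, 4.76% in larval tracheae and 98.6% in whole flies. The adult libraries differed in this, with *rpk* at 82.5, 83.0, 15.7 and 90.3% of the family's RPKM in replicates 1 to 4, and in replicate 3 *ppk22* was above *rpk*. In larval tracheae the order by mean RPKM was *ppk13*, *ppk22*, *ppk*, *ppk26*, *ppk29*, *ppk15* and *rpk*, with means from 2.04 down to 0.329, and each neighbour in that order differed by less than its SD over 4 libraries. In adult tracheae *rpk* came first at 13.6 ± 12.9 RPKM, followed by *ppk22* at 1.16 ± 0.846, *ppk13* at 0.415 ± 0.588 and *ppk26* at 0.368 ± 0.265. The step from *rpk* to *ppk22*, a difference of 12.5 RPKM, was smaller than the SD of *rpk*. In whole flies *rpk* was at 66.7 ± 22.7 RPKM, and *ppk20* came next at 0.646 ± 1.29, a difference of 66.1 RPKM and more than the SD of either. The mean of *rpk* was above those of 91.4% of all genes in whole flies, 79.3% in adult tracheae and 52.1% in larval tracheae.

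The other 30 members together had 7.91 ± 4.23 RPKM (SD, n = 4, range 5.08 to 14.2) in the larval libraries, 2.93 ± 0.959 (range 1.499 to 3.54) in the adult tracheal ones and 1.47 ± 0.800 (range 0.882 to 2.59) in those of intact flies. Every larval library lay above every library of the other groups in this sum, and adult tracheae and whole flies overlapped. These levels rest on 733 reads. Of the 360 values of these 30 genes in 12 libraries, 307 were 0, 10 were 1 or 2 reads, 15 were 3 to 9 reads and 28 were 10 reads or more.

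**Figure D2:**
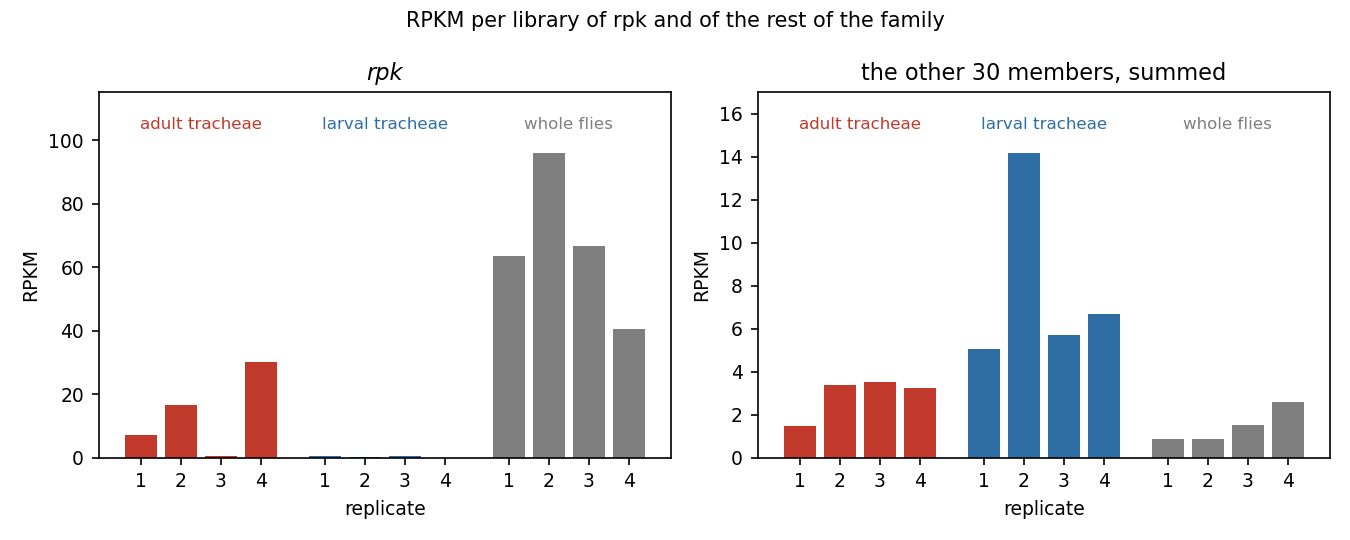
RPKM of *rpk* (left) and the summed RPKM of the other 30 members (right) in each library, with 1 bar per library and linear axes from 0 that differ between the panels. The whole-fly bars of *rpk* stand at 40.6 to 95.9 RPKM and the larval ones at 0 to 0.517, while in the sum of the others the larval bars, at 5.08 to 14.2 RPKM, are above all others.

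Differences between groups were tested on the total exon reads with edgeR's quasi-likelihood test over every gene that reached 10 reads in 2 or more of the 8 libraries of a comparison. The call required an adjusted p (Benjamini-Hochberg) under 0.05 together with a change of more than 1.5-fold. In adult tracheae against whole flies 6 members passed the filter on reads, in adult against larval tracheae 7, and in larval tracheae against whole flies 6. The other 25, 24 and 25 members had too few reads to be tested. A member read in 1 group alone passes the filter only through that group, so the members tested do not stand for the family.

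*rpk* (ripped pocket, FBgn0022981, BDGP6 3R from 4645981 to 4648884, plus strand, 5 annotated exons) was the most abundant member in adult tracheae and in whole flies. Whole flies had 870, 2404, 1216 and 560 exon reads in replicates 1 to 4, which is 63.6, 95.9, 66.8 and 40.6 RPKM. Adult tracheae had 92, 306, 25 and 998 reads, which is 7.06, 16.6, 0.659 and 30.3 RPKM. Larval tracheae had 9, 6, 6 and 0 reads, at most 0.517 RPKM. In RPKM every whole-fly library was above every adult tracheal one, and every adult tracheal one was above every larval one. The adult libraries spread the most for their level, from 0.659 in replicate 3 to 30.3 in replicate 4.

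Against whole flies, *rpk* was lower in larval tracheae (log2 fold change -7.06 with a standard error of 0.65, 134-fold lower, adjusted p = 1.13e-05 by edgeR's quasi-likelihood test). It was higher in adult than in larval tracheae (log2 fold change 5.08 with a standard error of 1.11, 33.8-fold, adjusted p = 0.00710), and it was called in each of the 8 fits that left out 1 library. In adult tracheae against whole flies its log2 fold change was -1.99 with a standard error of 0.71, and it missed the threshold (adjusted p = 0.0611). Without adult trachea replicate 3 or 4 it was called lower there (adjusted p from 0.0189 to 0.135 over the fits without 1 library).

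The transcripts of ovarian cells were present in the same libraries as *rpk*. The 11 listed ovary and eggshell markers summed to 8653, 271, 88.5 and 13334 RPKM in adult trachea replicates 1 to 4, to 11545 to 30110 in whole flies and to 0.632 to 5.81 in larval tracheae, where 6 to 8 of the 11 were at 0. The oocyte gene *osk*, chosen among these after its values were seen, was at 15.99, 52.9, 1.13 and 35.2 RPKM in adult trachea replicates 1 to 4 and at 46.8 to 51.3 in whole flies. It had 0 reads in 3 larval libraries and 2 reads in replicate 3. The listed germline gene *nos* was at 2.40, 2.23, 0 and 5.34 RPKM in adult trachea replicates 1 to 4 and at 14.5 to 20.8 in whole flies. For *vas* these values were 0.851, 4.94, 0 and 5.19, and 2.68 to 22.0. No adult tracheal library thus reached the whole-fly level in *nos*, unlike in *osk*. Adult trachea replicate 3 was the lowest of its group in *rpk*, in *osk* and in the ovary list, but replicate 1 had more of the list than replicate 2 and less *rpk*. The part of ovarian RNA in the *rpk* values was not tested.

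**Figure D3:**
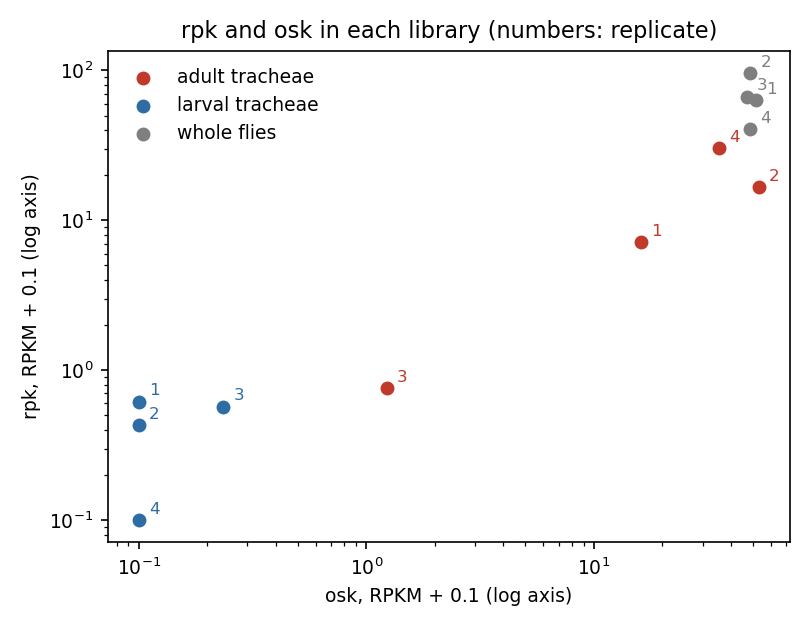
RPKM of *rpk* against that of the oocyte gene *osk* in each of the 12 libraries, both plus 0.1 and on log axes, with the replicate number beside each point. Larval libraries sit at the lower left (*osk* at most 0.134 RPKM), whole flies at the upper right (*rpk* 40.6 to 95.9 RPKM), and adult tracheal libraries lie between them in *rpk* (0.659 to 30.3 RPKM), while in *osk* they run from 1.13 in replicate 3 to 52.9 in replicate 2, above every whole-fly library.

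Of the 6492 reads of *rpk*, 3517 mapped uniquely (54.2%) and 713 spanned an exon junction (10.98%). The antisense RNA gene *CR44155* overlaps *rpk* by 1810 bases and was given 0 reads. On uniquely mapped reads alone the calls of *rpk* were the same in all 3 comparisons.

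*ppk* (pickpocket, FBgn0020258, 2L from 14378218 to 14381172, minus strand) and *ppk26* (FBgn0035785, 3L from 7456149 to 7458608, plus strand) encode subunits that work in the same channel of class IV sensory neurons. For *ppk*, larval tracheae had 6, 74, 8 and 13 exon reads in replicates 1 to 4, or 0.355, 4.19, 0.648 and 0.646 RPKM. Adult tracheae had 19 reads in replicate 3 (0.516 RPKM) and 0 in the others, and whole flies 16 reads in replicate 3 (0.905 RPKM) and 0 in the others. All 4 larval libraries had *ppk* reads, and replicate 2 was far above the rest. For *ppk26*, larval tracheae had 4, 69, 0 and 15 reads (0.279, 4.60, 0 and 0.879 RPKM), adult tracheae 0, 7, 12 and 17 (0, 0.461, 0.384 and 0.626 RPKM) and whole flies 0 in every library. Larval replicate 2 was again the highest, and the larval values overlapped those of adult tracheae, and those of whole flies through replicate 3, which had none.

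Against whole flies, *ppk26* was higher in larval tracheae (log2 fold change 7.73 with a standard error of 2.26, adjusted p = 0.0235 by edgeR's quasi-likelihood test). With 88 larval reads against 0, and a floor of 3 reads over the whole-fly group, the ratio over this floor was 30.05. The lower limit of an exact interval, of the kind given for *ppk22* below, was 23.9-fold. Of these 88 reads 69 were in larval replicate 2. Without that library the ratio over the floor was 8.81 and the lower limit 6.49-fold. *ppk26* was called in the 6 leave-one-out fits in which it was tested, and without larval replicate 2 or 4 it fell below the filter on reads. *ppk* was not called in any comparison, with log2 fold changes of 3.26 for larval tracheae against whole flies (standard error 1.74, adjusted p = 0.141), -2.84 for adult against larval tracheae (1.77, adjusted p = 0.275) and 0.25 for adult tracheae against whole flies (2.18, adjusted p = 0.944). Without whole-fly replicate 3 it was called in the first of these, and without adult trachea replicate 3 in the next one, each time with its only reads of that group left out.

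*ppk22* (FBgn0051105, 3R from 24857585 to 24859801, minus strand) and *ppk13* (FBgn0053508, 2L from 21086790 to 21088751, minus strand) complete the members with a mean of 1 RPKM or more in a group. For *ppk22*, adult tracheae had 0, 27, 40 and 29 exon reads (0, 2.01, 1.44 and 1.21 RPKM), larval tracheae 12, 57, 0 and 15 (0.944, 4.29, 0 and 0.992 RPKM) and whole flies 0, 0, 2 and 0 (0.150 RPKM in replicate 3). Adult and larval tracheae had *ppk22* reads in 3 of 4 libraries each, and larval replicate 2 was the highest once more. Of the 182 exon reads of *ppk22* over all libraries, 8 spanned an exon junction (4.40%), all of them in larval replicate 4. A further 59 reads lay in its introns, all in tracheal libraries. Whether the reads of *ppk22* came from spliced RNA was not tested. Against whole flies the gene was compared on exon reads. Against whole flies it was higher in larval tracheae (log2 fold change 5.59 with a standard error of 1.85, adjusted p = 0.0282). The ratio of pooled reads was 43.0 with a 95% exact interval of 11.5 to 361, which covers counting error only. Without larval replicate 2 the ratio was 18.8 (4.72 to 163). The call held in 4 of the 8 fits that left out 1 library and was lost without larval replicate 2 (adjusted p = 0.0906) or without whole-fly replicate 1, 2 or 4.

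For *ppk13*, larval tracheae had 33, 2, 10 and 43 exon reads (3.17, 0.184, 1.32 and 3.48 RPKM), adult tracheae 10, 0, 5 and 3 (1.29, 0, 0.221 and 0.152 RPKM) and whole flies 0, 10, 0 and 0 (0.668 RPKM in replicate 2). Larval replicate 2, the highest in *ppk*, *ppk22* and *ppk26*, was the lowest larval library in *ppk13*. The log2 fold change of *ppk13* in larval tracheae against whole flies was 4.05 (standard error 1.67, adjusted p = 0.0656), which missed the threshold. DESeq2 and limma on log2(RPKM + 0.1) called it higher. This limma fit called neither *ppk22* (adjusted p = 0.0504) nor *ppk26* (adjusted p = 0.0553).

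**Figure D4:**
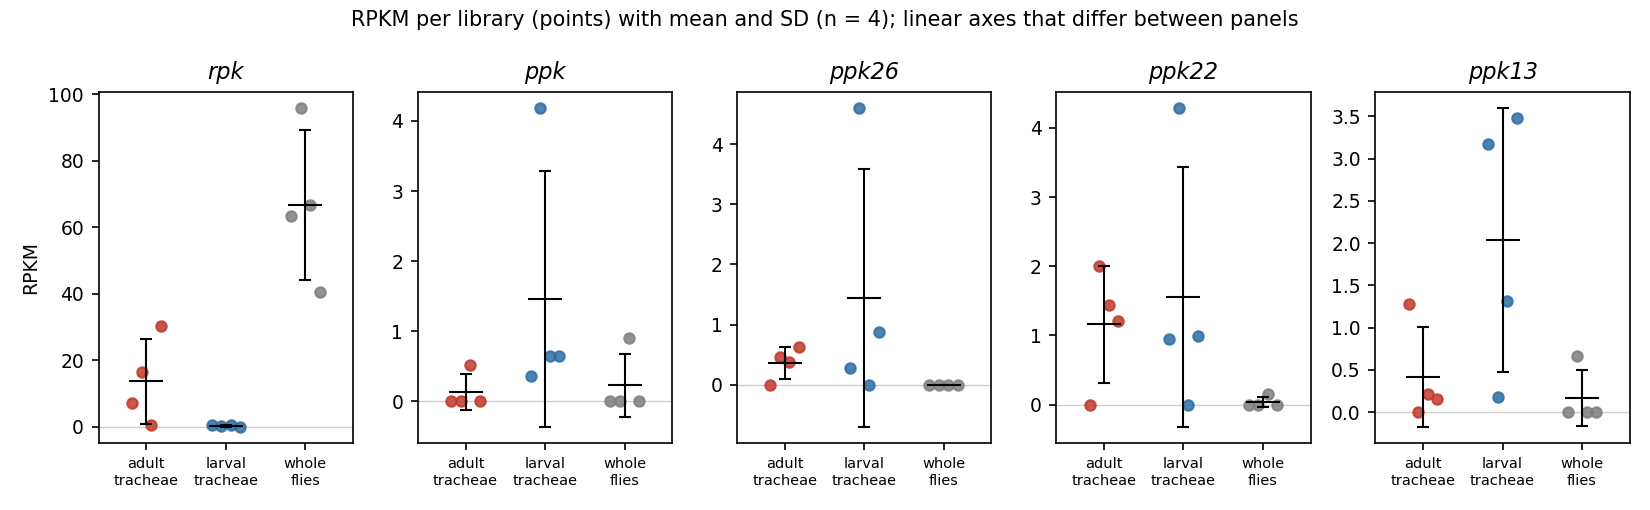
RPKM of *rpk*, *ppk*, *ppk26*, *ppk22* and *ppk13* in each library (points, replicates 1 to 4 from left to right) of adult tracheae, larval tracheae and whole flies, with the mean and SD (bars, n = 4), on linear axes that differ between panels. Larval replicate 2 stands above all other libraries in *ppk* (4.19), *ppk26* (4.60) and *ppk22* (4.29), and in *ppk13* it is the lowest larval point (0.184).

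Of these members *ppk* and *ppk26* are known from sensory neurons. Markers of neurons and of epidermis and larval cuticle were read in the same libraries. The 15 neuronal markers summed to 22.6 to 30.6 RPKM in larval tracheae with 4 to 8 of them at 0, among them *brp* with 0 reads in all 4 libraries, to 23.9 to 98.7 in adult tracheae with none at 0 and to 6.91 to 8.75 in whole flies with up to 3 at 0. Most of the larval sum was *Syx1A*, a syntaxin, at 19.5 to 26.7 RPKM. Without it the other 14 summed to 3.06 to 3.90 in larval tracheae, below the 4.42 to 5.83 of whole flies, and to 18.3 to 76.7 in adult tracheae. Larval replicate 2, with 27.9 RPKM, was not the highest of its group in this sum. A separate list of 14 genes of sensory neurons and of mechanosensory or TRP channels summed to 6.15 RPKM in larval replicate 2. Larval replicates 1, 3 and 4 were higher in this list, at 10.4 to 12.003 RPKM. In each larval library 9 or 10 of the 14 were at 0. The same list summed to 17.4 to 33.5 RPKM in adult tracheae and to 6.49 to 17.8 in whole flies. The 8 markers of epidermis and larval cuticle summed to 3066, 11963, 2244 and 4617 RPKM in larval trachea replicates 1 to 4, to 6.23 to 22.9 in adult tracheae and to 0.252 to 3.42 in whole flies. The order of the larval libraries in this sum, replicate 2, then 4, 1 and 3, was that of *ppk22* and *ppk26*. For *ppk22* the places of replicates 4 and 1 rested on 15 against 12 reads. The 16 tracheal markers, at 1644, 2286, 1099 and 2496 RPKM in larval replicates 1 to 4, ran in a near order, 4, 2, 1 and 3. The order of the cuticle sum was not that of *ppk*, which ran 2, 3, 4 and 1, nor that of *ppk13*, which ran 4, 1, 3 and 2. Tracheal tubes are themselves lined with cuticle, so the cuticle list does not tell body wall from tracheae, and its gene *Twdlbeta* was at 1129 to 1737 RPKM in the larval libraries. The part of neuronal, epidermal or cuticle-forming cells in these values was not tested.

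The remaining members had fewer reads. *ppk29* had 4, 10, 13 and 0 exon reads in larval tracheae, 0 in all adult tracheal libraries and 6, 4, 1 and 0 in whole flies. Its log2 fold change in adult against larval tracheae was -6.30 (standard error 2.16, adjusted p = 0.0694), and it was not called. *ppk8* had 13 and 11 reads in adult trachea replicates 3 and 4 and none elsewhere. None of these 24 reads mapped uniquely, and the antisense genes *CG2875* and *DIP-alpha* overlap it. The pheromone gene *ppk23* had 15 reads in adult trachea replicate 3, 4 in larval replicate 3 and 6 in whole-fly replicate 3.

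*ppk28* had 4 reads in adult trachea replicate 2, 2 and 10 in larval replicates 2 and 4, and 3 in whole-fly replicate 1, and 3 of these 19 mapped uniquely. *ppk31* had 1, 0, 2 and 5 reads in adult tracheae and none elsewhere, 1 of them unique, in a gene that overlaps *CG34293* on the other strand. Reads of the rest came from 1 library each: 25 for *ppk20* in whole-fly replicate 4, 13 for *ppk15* in larval replicate 3, 11 for *ppk5* in adult replicate 4 and 8 for *ppk3* in adult replicate 2. Presence in a group thus rested on 1 library for each of these 4 genes.

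In adult tracheae against whole flies 0 of the 6 members tested were called higher, where 16.1% of all 9900 genes tested were, and 0 were called lower, where 7.36% were. At an unadjusted p under 0.05, 2 members were higher (*ppk22* and *ppk26*) and 1 lower (*rpk*) by edgeR. The share of all genes at this looser threshold was not counted, so such counts are no result about the family. DESeq2 called *ppk22* higher and *rpk* lower, and limma on log2(RPKM + 0.1) called *rpk* lower and none higher. The median log2 fold change was 3.44 over the 6 members and 0.14 over all genes. *ppk8*, *ppk22* and *ppk26* reached the filter through their adult tracheal reads alone, so the filter itself favours a high median here. The split of calls over all genes differed between the fits, with 1594 higher and 729 lower by edgeR against 1085 higher and 1849 lower by limma. These fits differ in input, filter, model and scaling. With RLE size factors edgeR called 1635 higher and 809 lower.

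In adult against larval tracheae 1 of 7 members, *rpk*, was called higher, where 19.3% of 9875 genes were, and 0 were called lower, where 8.96% were. At an unadjusted p under 0.05, 1 member was higher (*rpk*) and 1 lower (*ppk29*) by edgeR, again without a share of all genes to set beside it. DESeq2 and limma called 0 lower. The median log2 fold change was -1.96 over the 7 members and 0.19 over all genes. *ppk8* reached the filter through adult reads alone and *ppk29* through larval reads alone.

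In larval tracheae against whole flies 2 of 6 members, *ppk22* and *ppk26*, were called higher, where 22.1% of 9508 genes were, and 1, *rpk*, was called lower, where 27.4% were. At an unadjusted p under 0.05, 3 members were higher and 1 lower by edgeR, with the share of all genes not counted. The median log2 fold change was 3.65 over the 6 members and -0.26 over all genes. *ppk22*, *ppk26* and *ppk29* reached the filter through their larval reads alone, so here too the filter favours a high median. Over all genes edgeR called 2106 higher and 2602 lower, and limma 1617 and 4177. With so few members tested, these shares and medians do not set the family apart from all genes. The 3 comparisons share their libraries pairwise, so their values are given side by side only.

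**Figure D5:**
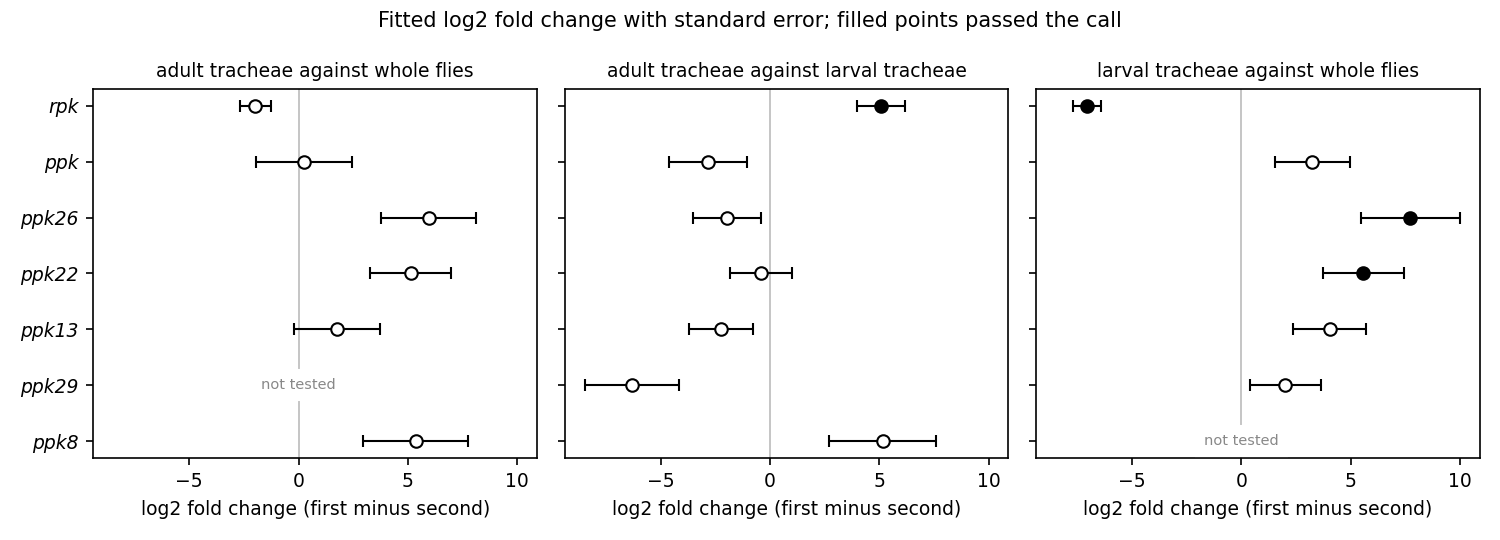
Fitted log2 fold change (first group minus second) with its standard error for each member tested by edgeR in the 3 comparisons, where filled points were called at an adjusted p under 0.05 and open points were not. The filled points are *rpk* at 5.08 in adult against larval tracheae, and *rpk* at -7.06, *ppk26* at 7.73 and *ppk22* at 5.59 in larval tracheae against whole flies.

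Other genes for ion and liquid transport across epithelia were measured in the same fits. A list of 21 such genes (sodium pump subunits, vacuolar proton pump subunits, sodium/proton exchangers, cation-chloride cotransporters, chloride channels and water channels) had 20 members in the files, and all 20 were tested. In adult tracheae against whole flies 4 were higher and 1 lower, with a median log2 fold change of 0.86. Over all genes tested 16.1% were higher and 7.36% lower, with a median of 0.14. The water channel gene *Drip* had 47.1 ± 29.8 RPKM in adult tracheae against 1.12 ± 0.748 (log2 fold change 6.05 with a standard error of 0.75, adjusted p = 0.000844), and the beta subunit genes of the sodium pump *nrv2* and *nrv3* and the exchanger gene *Nha2* were the others that were higher. The aquaporin gene *Prip* was the lower one, at 41.8 ± 25.2 against 130.0 ± 23.97 RPKM (log2 fold change of -1.19, adjusted p = 0.0448, called in 12 of 21 other settings).

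In adult against larval tracheae 4 of the 20 were higher (*Nha2*, *Prip*, *kcc*, *nrv3*) and 1 lower (*Vha68-2*), with a median log2 fold change of -0.08, where 19.3% and 8.96% of all genes were called and their median was 0.19. In larval tracheae against whole flies 11 were higher and 2 lower (*Prip* and *kcc*), with a median of 1.00, where 22.1% and 27.4% of all genes were called and their median was -0.26. The 11 were *Atpalpha* and *nrv2* of the sodium pump, *Vha55* and *Vha68-2* of the proton pump, *Nha1*, *Drip*, *Best1*, *Best2*, *ClC-a*, *ClC-b* and *ClC-c*. Over the other settings the number of genes higher ran from 3 to 9, 3 to 5 and 3 to 13 in the 3 comparisons, and the number lower from 0 to 2, 0 to 3 and 1 to 4. The beta subunit gene *nrv2* had 45.6 ± 4.90 RPKM in the larval libraries, 31.8 ± 20.1 in the adult tracheal ones and 6.68 ± 3.75 in intact flies, and the larval and adult levels overlapped. In larval tracheae, where *nrv2* was called higher than in whole flies in every setting run, the largest mean of any pickpocket gene was 2.04 RPKM.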

How the data were processed

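The authors amplified cDNA from poly(A) RNA by PCR without molecular identifiers, sequenced it and mapped it to BDGP6 in the CLC Genomics Workbench (version not given in the sources used here). Raw read counts for genes, exons and introns were deposited, total and uniquely mapped. RPKM, which the authors derived from total exon reads, gives the levels. TPM was not used. Total exon reads were tested in R 4.3.3 with edgeR 4.0.16 (TMM, quasi-likelihood F-test, Benjamini-Hochberg adjustment over all genes tested), each comparison on its own 8 libraries. Alternatives were DESeq2 1.42.0, RLE size factors, total gene reads, uniquely mapped exon reads, no filter, filterByExpr, 1 fit of all groups, the replicate number as a block, adjusted p alone, limma 3.58.1 on log2(RPKM + 0.1) or log2(RPKM + 1), without TMM, over genes at 0.5 RPKM or more, and leaving out libraries. The fit was tested on simulated data. Tables were handled in Python 3.11.15 with pandas 2.3.3.

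Values per library are given for members called in a comparison or with a mean of at least 1 RPKM in a group, and the rest by their reads. The list entries *Mega*, *trpm* and *wurst* were not found in the files. Members and lists were chosen with earlier results of these data known.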

Additional observations from a re-analysis of the deposited data

Results flagged for a closer look

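A sample far from the other 3 of its group was found in 5 of the 14 groups of 4 values tested. Chance gives about 1 in 20 in continuous values, a rate that does not hold here, since a group with 3 libraries at 0 and 1 above it always stands out. These were *ppk* at 0.516 RPKM in adult trachea replicate 3 and at 0.905 in whole-fly replicate 3, *ppk13* at 0.668 in whole-fly replicate 2 and *ppk22* at 0.150 in whole-fly replicate 3, each with the other 3 libraries at 0, and *ppk* at 4.19 RPKM in larval trachea replicate 2, where the next library was at 0.648.

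Intron reads, which the comparisons do not use, were present in tracheal libraries for members that had none in whole flies. There were 43 for *ppk22* in adult tracheae and 16 in larval tracheae, and in larval tracheae 12 for *ppk29* and 9 for *ppk17*.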

How the results depend on the processing

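*rpk* kept its calls in adult against larval tracheae (21 other settings) and in larval tracheae against whole flies (20). In adult tracheae against whole flies, 1 member was called higher in place of 0 on total gene reads and with DESeq2 (*ppk22* in both), and 0 to 1 without 1 library; 1 was called lower in place of 0 with DESeq2, with each of the 3 limma fits and without adult trachea replicates 3 and 4 (*rpk* in each), and 0 to 1 without 1 library. In adult against larval tracheae, 1 was lower in place of 0 in the fit of all 3 groups (*ppk29*), and 0 to 1 without 1 library. In larval tracheae against whole flies, 2 were higher (*ppk22* and *ppk26*), but 1 in each limma fit (*ppk13*). With filterByExpr 0 were higher, but that fit tested 2 members, neither of them *ppk22* or *ppk26*. Leaving out 1 library gave 1 to 3. Without larval replicate 2 only *ppk13* was called higher, and without larval replicate 4 only *ppk22*. Among the whole-fly libraries, leaving out number 1 or number 4 left *ppk26* alone, and number 2 left *ppk13* and *ppk26*. The remaining fits without 1 library kept *ppk22* and *ppk26*. Limma on log2(RPKM + 0.1) shifted the median over all genes from 0.14 to -0.37 (adult) and from -0.26 to -0.87 (larval) on the log2 scale against whole flies. The cause of these changes was not tested.

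With the replicate block 0 members were higher in larval tracheae against whole flies (*ppk22*, adjusted p = 0.160; *ppk26*, adjusted p = 0.0824). Libraries with the same number correlated by -0.0933 to 0.0444 in their deviations from the group means. Those with different numbers reached 0.105. Taken over all genes tested, these values cannot show whether same-numbered libraries shared a batch that touched some genes.

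Depth limits most members: 3 reads were 0.201 to 0.598 CPM (reads scaled to library size), and 17 members had at most 1 read in all.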
